A study of Mus musculus with 64 samples.

Results

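Skeletal muscle takes up fatty acids from the blood and burns them in its mitochondria. Lipase activity at the capillary wall frees fatty acids, the transporter CD36 brings them into the fiber, and the carnitine shuttle carries their acyl chains across the mitochondrial membranes. Acyl-CoA dehydrogenases and the mitochondrial trifunctional protein then shorten the chains in repeated rounds of beta-oxidation. Many of these genes are targets of the PPAR nuclear receptors, and several of them respond to fasting and exercise in muscle.

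The genes described here are 10 genes of this route, taken by symbol: Cd36, Angptl4, Cpt1b, Cpt2, Acadvl, Acadl, Acadm, Hadha, Hadhb, and Ucp3. The rule that names them uses no measured value. All 10 were found among the 55401 gene identifiers of the count table, and all 10 were among the 15241 genes with enough counts to be tested.

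The study compared gastrocnemius muscle of HIF1α KO mice, in which a Cre transgene under the HSA (human α-skeletal actin) promoter deletes a floxed exon of Hif1a in skeletal muscle, with muscle of floxed mice without Cre (fl/fl). Both genotypes carried the floxed alleles on a C57BL/6JBomTac background and were adult mice of both sexes. Mice ran on a treadmill for 60 min or were placed on a mock treadmill, at zeitgeber time (ZT) 3 in the early light, resting phase or at ZT15 in the early dark, active phase, and muscle was taken 3 h later. RNA was sequenced from 64 mice, and each of the 8 combinations of genotype, time of day, and treatment had 4 males and 4 females. The library of mouse 44 (HIF1α KO, ZT3, exercised) held 382 counts and was left out, so that group had 7 mice and the others 8.

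Total counts of the 63 libraries ranged from 2359780 to 40377963, with a median of 16236352. Hif1a itself was at 25.9 to 57.3 CPM (counts scaled to a common library size) in fl/fl and 28.8 to 49.7 CPM in HIF1α KO muscle. Only 1 exon of Hif1a is floxed, and muscle holds other cells that keep the gene, so a count over the whole gene does not check the genotype labels. The fast-fiber genes Myh4, Actn3, and Tnnt3 had median levels of 64236, 6860, and 16236 CPM beside 390 CPM for the slow-fiber gene Myh7, whereas the brown fat gene Ucp1 was at 0 in 60 libraries. Each library was 1 mouse, so the p-values below measure the spread between mice. In whole muscle, fewer cells of a type and less RNA per cell cannot be told apart.

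Levels between genes were compared per length, as RPKM (CPM per kilobase of exon), and values are means ± SD over 63 mice. Coordinates are on GRCm38. Acadvl (ENSMUSG00000018574.14, chr11:70010183-70015411, minus strand), the very long-chain acyl-CoA dehydrogenase that starts beta-oxidation of the longest chains, was the highest at 109 ± 19.5 RPKM. Cd36 (ENSMUSG00000002944.15, chr5:17781690-17888801, minus strand), the fatty acid transporter of the plasma membrane, followed at 86.0 ± 20.9 RPKM. Acadm (ENSMUSG00000062908.12, chr3:153922357-153944632, minus strand), the medium-chain dehydrogenase, was at 66.7 ± 11.6 RPKM. These genes were each higher than the next gene in the order in 55, 60, and 48 of 63 libraries.

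Acadl (ENSMUSG00000026003.5, chr1:66830839-66863277, minus strand), the long-chain dehydrogenase, was at 58.9 ± 11.3 RPKM, so its difference from Acadm was smaller than the spread between mice of either gene. Ucp3 (ENSMUSG00000032942.14, chr7:100472990-100486432, plus strand), an inner-membrane carrier protein of muscle mitochondria, was at 48.2 ± 19.8 RPKM, also within its spread of both Acadl and Hadha. Hadha (ENSMUSG00000025745.12, chr5:30118304-30155162, minus strand) encodes the α subunit of the trifunctional protein and was at 35.6 ± 5.42 RPKM. Its β subunit partner Hadhb (ENSMUSG00000059447.13, chr5:30155248-30184593, plus strand) was at 19.7 ± 4.25 RPKM, below Hadha in 63 of 63 libraries.

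Cpt2 (ENSMUSG00000028607.16, chr4:107903981-107923610, minus strand), the carnitine palmitoyltransferase of the inner membrane, was at 15.2 ± 2.19 RPKM. The lowest levels were those of Cpt1b (ENSMUSG00000078937.8, chr15:89416405-89425863, minus strand), the muscle form of the outer-membrane carnitine palmitoyltransferase, and Angptl4 (ENSMUSG00000002289.16, chr17:33773750-33781830, minus strand), a secreted inhibitor of lipoprotein lipase. Cpt1b was at 2.37 ± 0.405 and Angptl4 at 2.03 ± 1.63 RPKM, which did not differ beyond their spread. The level of Cpt1b is uncertain, because 2744 of its 3372 exonic bases are also exons of Gm44502 on the same strand, and how shared reads were counted is not given in the sources used here. Gm44502 itself received 3 counts over all libraries. Acadvl shared 1151 exonic bases with Dvl2 on the opposite strand, which was at 1.53 to 4.94 CPM.

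The genes differed in how much they varied between mice. Over all 63 mice the coefficient of variation was 14.4% for Cpt2, 15.2% for Hadha, and 24.3% for Cd36, but 41.1% for Ucp3 and 80.4% for Angptl4. Angptl4 ranged from 0.371 CPM, a single count, to 31.4 CPM.

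**Figure D1:**
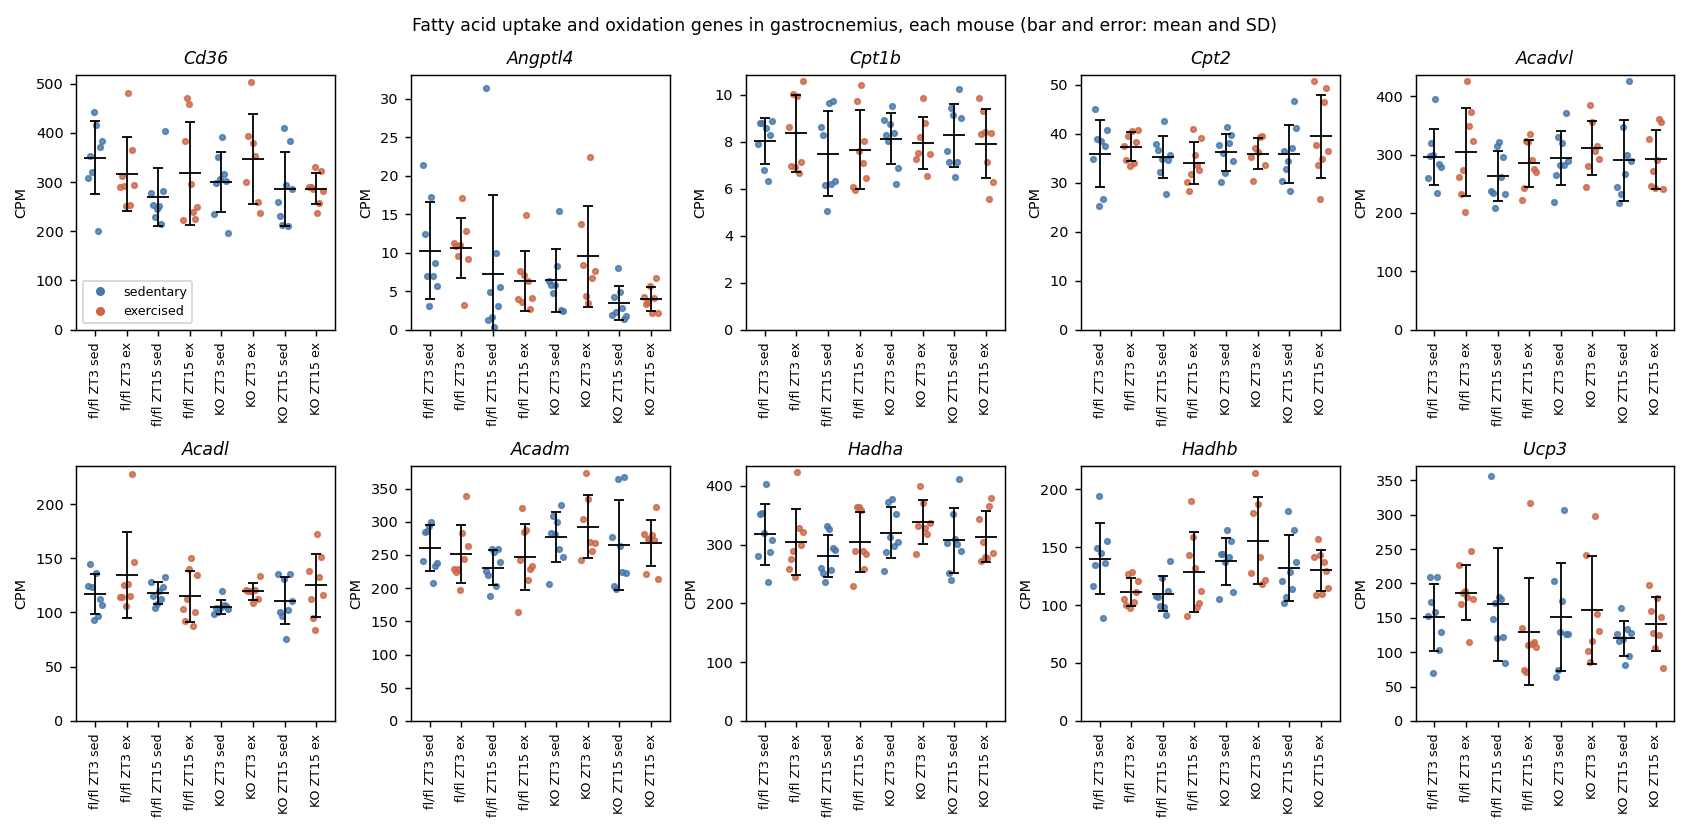
CPM of each of the 10 genes (vertical axis, from 0) in the 8 groups of genotype, time of day, and treatment (horizontal axis). Points are mice, blue for sedentary and orange for exercised, and bars give the mean and SD. The groups overlap for every gene, and Angptl4 and Ucp3 have the widest spread, with the highest mouse at 31.4 and 356 CPM.

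Hadha and Hadhb lie head to head on chromosome 5 and are transcribed away from each other. Between the first bases of their annotated genes lie 85 bases, and their RefSeq start sites are 273 bases apart, so the pair shares an upstream region. This gap is shown because the RNAs of both genes were compared throughout. It is given 5′ to 3′ on the plus strand (RefSeq, GRCm38.p6, chr5:30155163-30155247), with Hadha to its left and Hadhb to its right, and holds none of the motifs searched.
Hadha to Hadhb gap: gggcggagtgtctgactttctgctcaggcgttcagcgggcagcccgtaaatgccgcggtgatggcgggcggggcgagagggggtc

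RefSeq promoter sequences on GRCm38.p6 were matched for 8 of the 10 genes, and Angptl4 and Cpt1b had no entry. In the 250 bases before the start site, both strands were searched for AGGTCA, the core hexamer bound by nuclear receptors, for a PPAR-type direct repeat, which contains it, with 1 base between the copies, for ACGTG, the core of the hypoxia response element, and for CACGTG, the E-box of clock factors, which contains the hypoxia core. The hexamer was found before Cd36, Acadvl, Acadm, and Ucp3, that is 4 of 8 genes, and in 14% of all 32851 promoter windows. The hypoxia core was found before Acadvl alone, 1 of 8, and in 16.6% of all windows. The E-box (6.02% of all windows) and the PPAR-type repeat (0.0335%) were found in 0 of 8. The window of Ucp3 was the only one of the 8 with 2 copies of the hexamer, at 149 and 44 bases before the start, and is shown for this reason on the plus strand (chr7:100472741-100472990), with the copies in capitals. A match to these letters is a description of the sequence and shows no binding.
Ucp3 upstream: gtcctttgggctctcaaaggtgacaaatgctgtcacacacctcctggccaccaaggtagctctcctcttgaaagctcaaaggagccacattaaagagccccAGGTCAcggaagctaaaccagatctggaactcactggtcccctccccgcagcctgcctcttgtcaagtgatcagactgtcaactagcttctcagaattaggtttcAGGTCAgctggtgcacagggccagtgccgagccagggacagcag

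To find whether a single bout of running changed these genes, exercised and sedentary mice were compared in each combination of genotype and time of day and on average over the 4. None of the 10 genes passed an adjusted p of 0.1 (edgeR quasi-likelihood test, Benjamini-Hochberg over all genes tested). This was so in 0 of 50 tests, of which 2 had an unadjusted p under 0.05, and DESeq2 also called 0. Of all tested genes, 0.236% (fl/fl, ZT3), 0% (fl/fl, ZT15), 0.131% (HIF1α KO, ZT3), and 0.0591% (HIF1α KO, ZT15) passed within the combinations, and 2.84% on average. All 10 average log2 fold changes were above 0 but small, with a median of 0.05 beside −0.0037 over all genes. The sign turned for Cpt1b, Acadm, Hadha, and Hadhb when the slow-fiber score was added to the model, and the 7 slow-fiber markers, of which none passed, had a median log2 fold change of 0.30.

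Over the 50 tests, the smallest p was that of Hadhb in fl/fl mice at ZT3, which was lower with exercise. Its log2 fold change there was −0.33 ± 0.13 (SE), with an adjusted p of 0.28 in edgeR. On average over the combinations, Acadl had the smallest p, with a log2 fold change of 0.13 ± 0.061 (SE) and an adjusted p of 0.414 in edgeR. It ranged from 75.3 to 145 CPM with a median of 109 in 32 sedentary mice, and from 84.0 to 228 CPM with a median of 120 in 31 exercised mice. The 95% intervals of the average log2 fold changes, taken over Cd36, both carnitine palmitoyltransferases, the dehydrogenases, Hadha, and Hadhb, all lay between −0.12 and 0.25. Ucp3 (−0.21 to 0.32) and Angptl4 (−0.29 to 0.63) had wider intervals. In simulated data, the same test on the average recovered 83.6% of 67 genes changed by 0.5 on the log2 scale.

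Other genes of lipid metabolism did respond in the same libraries. Of 70 tested genes in 7 lists of uptake, carnitine shuttle, beta-oxidation, lipid droplet, PPAR, and peroxisomal genes, 4 rose and 0 fell with exercise on average. This was 5.71% of the 70, beside 2.84% of all tested genes. Ppargc1a, a coactivator of the PPARs and of mitochondrial gene expression, had a median of 54.5 CPM (27.6 to 154) in sedentary and 125 CPM (70.2 to 208) in exercised mice, a log2 fold change of 1.22 ± 0.11 (adjusted p = 5.05e-12, edgeR). Ppara, the fatty acid-sensing receptor of oxidative tissues, rose by 0.37 ± 0.078 on the log2 scale (adjusted p = 0.002) and Esrrg, an orphan receptor of oxidative muscle, by 0.28 ± 0.083 (adjusted p = 0.0596). Plin4, which coats lipid droplets, rose by 0.31 ± 0.065 (adjusted p = 0.00168). On average, none of the 14 tested genes of the beta-oxidation list and none of the 8 of the carnitine shuttle passed, with 0 and 0 at an unadjusted p under 0.05. In fl/fl mice, the beta-oxidation list had a median log2 fold change of −0.18 at ZT3, with 2 of 14 genes above 0. At ZT15 its median was 0.21, with 12 of 14 above 0. At these times, 2 and 3 of its genes had an unadjusted p under 0.05 (edgeR), and 0 passed. In HIF1α KO mice the medians were 0.092 at ZT3 and −0.046 at ZT15. No slow-fiber, fast-fiber, adipocyte, endothelial, or blood marker passed, but Cidea, a marker of brown fat, rose by 1.42 from a low level (median 0.964 CPM).

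**Figure D2:**
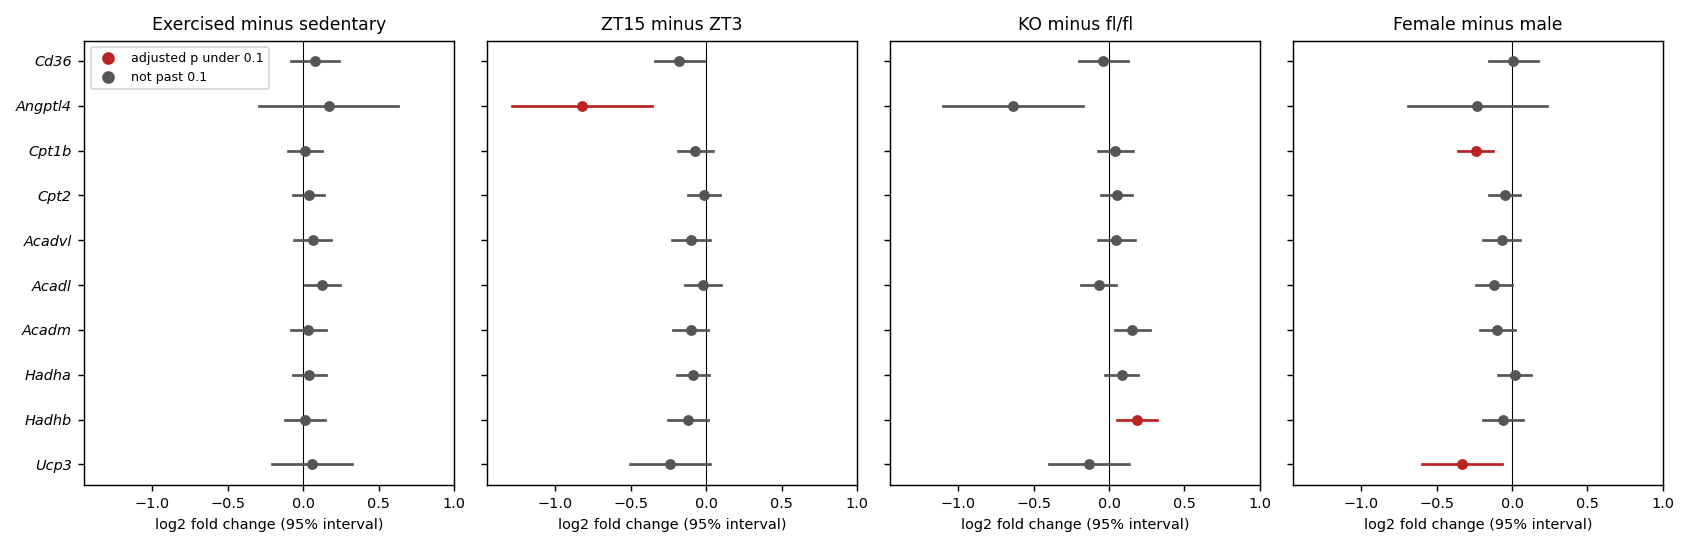
Log2 fold changes (horizontal axes) of the 10 genes for exercised minus sedentary, ZT15 minus ZT3, and HIF1α KO minus fl/fl, each averaged over 4 combinations, and for female minus male. Lines are 95% intervals and red marks an adjusted p under 0.1: Angptl4 by time of day (−0.83), Hadhb by genotype (0.18), and Cpt1b (−0.24) and Ucp3 (−0.33) by sex.

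To compare the early active with the early resting phase, ZT15 was set against ZT3 in each combination of genotype and treatment and on average. Angptl4 was the only gene of the 10 that passed, and it was lower at ZT15. On average over the combinations, 1 of 10 genes passed, beside 8.02% of all tested genes, and 3.92% were lower. None passed within a combination, where 1.88% (fl/fl, sedentary), 1.18% (fl/fl, exercised), 0.479% (HIF1α KO, sedentary), and 0.663% (HIF1α KO, exercised) of all tested genes did. Over the 50 tests, 6 had an unadjusted p under 0.05, and DESeq2 called 1.

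In sedentary fl/fl mice, Angptl4 ranged from 3.06 to 21.4 CPM with a median of 7.78 at ZT3, and from 0.371 to 31.4 CPM with a median of 3.97 at ZT15. In exercised fl/fl mice it ranged from 3.14 to 17.1 CPM (median 10.9) at ZT3 and from 2.74 to 14.9 CPM (median 5.22) at ZT15. The groups overlapped, and at ZT15 the upper end of each was 1 mouse, mouse 8 and mouse 37. In sedentary HIF1α KO mice the values were 2.42 to 15.4 CPM (median 5.80) at ZT3 and 1.44 to 8.01 CPM (median 2.57) at ZT15. With exercise, HIF1α KO mice had 3.44 to 22.4 CPM (median 7.57) at ZT3 and 2.10 to 6.77 CPM (median 3.88) at ZT15. The median was thus lower at ZT15 in 4 of 4 combinations.

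The average log2 fold change of Angptl4 was −0.83 ± 0.24 (SE), or 0.564 of the ZT3 level, with an adjusted p of 0.0235 (edgeR). Within the combinations the log2 fold changes were −0.51, −0.77, −0.79, and −1.23, and none of the 4 passed alone. Within the 4 blocks of 16 mouse numbers, the median fell from 11.1 to 3.67 CPM in mice 1 to 16, from 15.4 to 2.48 in mice 33 to 48, and from 7.25 to 4.15 in mice 49 to 64, but was 5.22 at ZT3 and 5.26 at ZT15 in mice 17 to 32. When the block was added to the model, Angptl4 was at −0.76 (adjusted p = 0.0312, edgeR), and over all alternatives its adjusted p ranged from 0.0106 to 0.051. The time effect did not differ detectably between genotypes, by −0.37 on the log2 scale on average over treatments (adjusted p = 0.981).

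The other 9 genes had average log2 fold changes between −0.24 and −0.014, all below 0, and none passed. The nearest was Cd36, at −0.18 ± 0.083 (adjusted p = 0.245, edgeR), with a median lower at ZT15 in 4 of 4 combinations. Ucp3 was at −0.24 ± 0.13 with an interval of −0.50 to 0.026. For both carnitine palmitoyltransferases, the dehydrogenases, Hadha, and Hadhb the intervals reached no further than −0.25 and 0.097. On average, the 14 other beta-oxidation genes tested were alike in this, with a median of −0.092, 0 called, and 1 with an unadjusted p under 0.05. In sedentary fl/fl mice their median was −0.24, with 0 of 14 above 0, 7 at an unadjusted p under 0.05, and 1 called. It was 0.095 in exercised fl/fl, −0.013 in sedentary HIF1α KO, and −0.18 in exercised HIF1α KO mice, with 0 called. Cd36 and Hadhb were at −0.38 and −0.36 in sedentary fl/fl mice (adjusted p = 0.252 and 0.186, edgeR). In exercised fl/fl mice they were at 0.0042 and 0.21.

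Among the 70 genes of the wider lists, 9 were lower and 3 higher at ZT15 on average over the combinations. This was 17.1% of the 70, beside 8.02% of all tested genes. Cpt1a, the carnitine palmitoyltransferase isoform of liver and other tissues, went from a median of 17.01 CPM (6.81 to 23.5) to 10.9 CPM (7.13 to 17.2), a log2 fold change of −0.54 ± 0.086 (adjusted p = 5.81e-06, edgeR). Mlycd, which degrades the inhibitor malonyl-CoA, was at −0.33 ± 0.065 (adjusted p = 0.000384), and the carnitine transporter gene Slc22a5 at −0.18 ± 0.064 (adjusted p = 0.0807). Acsl1, which activates fatty acids to acyl-CoA, was at −0.33 ± 0.065 (adjusted p = 0.000261), and the lipoprotein receptor gene Vldlr at −0.16 ± 0.049 (adjusted p = 0.0336).

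The PPAR target Pdk4, a kinase that inhibits pyruvate dehydrogenase, fell by 0.52 on the log2 scale (adjusted p = 0.0614, edgeR). Lipid droplet genes went in both directions. G0s2, an inhibitor of adipose triglyceride lipase, had a median of 14.9 CPM (3.81 to 41.04) at ZT3 and 48.2 CPM (3.83 to 143) at ZT15, a log2 fold change of 1.48 ± 0.18 (adjusted p = 2.58e-08). Dgat2, which makes triglyceride, rose by 0.38, while Plin5, a droplet coat protein of oxidative tissues, fell by 0.52. Slc27a4, a fatty acid transport protein, rose by 0.19. None of the 7 adipocyte markers passed by time of day, with a median log2 fold change of −0.023.

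**Figure D3:**
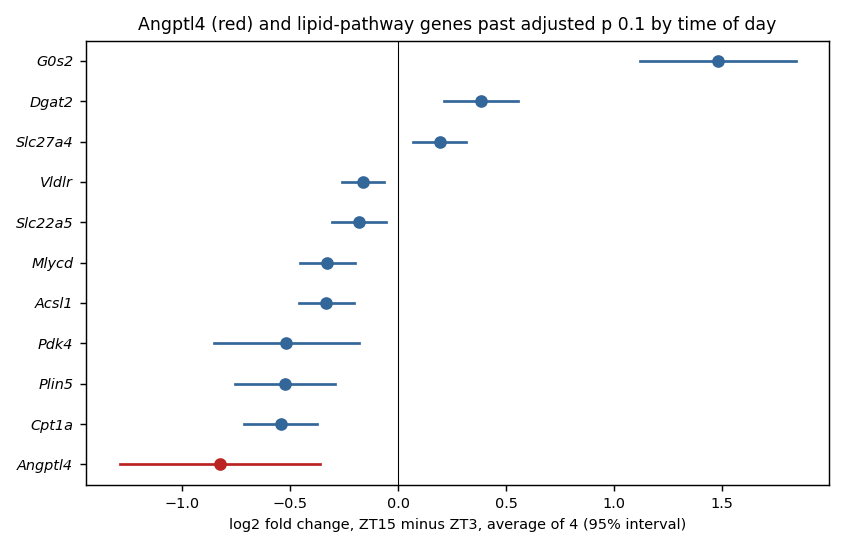
Average log2 fold change of ZT15 minus ZT3 (horizontal axis, lines are 95% intervals) for Angptl4, in red, and for the genes of the wider lists named for time of day, in blue. Angptl4 (−0.83) is at the lower end, near Cpt1a (−0.54), and G0s2 (1.48) is at the upper end.

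To find whether loss of HIF1α in muscle fibers changed these genes, HIF1α KO and fl/fl mice were compared in each combination of time of day and treatment and on average. Hadhb was higher in HIF1α KO muscle in exercised mice at ZT3 and on average over the 4 combinations. These were 2 of 50 tests, and 1 of 10 genes in each of both comparisons, beside 1.43% of all tested genes in exercised mice at ZT3 (0.873% higher) and 8.26% on average (4.68% higher). In the other combinations, where none passed, 0.4% (ZT3, sedentary), 0.0459% (ZT15, sedentary), and 0.4% (ZT15, exercised) of all tested genes did.

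In exercised mice at ZT3, Hadhb was at 118, 122, 127, 141, 180, 187, and 214 CPM in the 7 HIF1α KO mice. In the 8 fl/fl mice it ranged from 97.4 to 128 CPM with a median of 108. The groups overlapped, and the 3 highest HIF1α KO mice (20, 28, and 23) stood clear of the rest. The log2 fold change was 0.49 ± 0.14 (SE), or 1.40-fold, with an adjusted p of 0.0828 (edgeR), and on average over the combinations it was 0.18 ± 0.067, or 1.14-fold (adjusted p = 0.0968). In the other combinations the log2 fold changes were −0.028 in sedentary mice at ZT3, 0.26 in sedentary mice at ZT15, and 0.019 in exercised mice at ZT15, and none passed.

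Both calls moved with the mouse number. Mice 20, 23, and 28 are 3 of the mice numbered 17 to 32, a block with 3 exercised HIF1α KO mice at ZT3 and 0 fl/fl mice of that treatment and time. The median of Hadhb over all groups was 153 CPM in that block and 107, 128, and 119 CPM in the others, and the blocks took 37.9% of the variance of Hadhb left by group and sex. Within the other blocks, the log2 ratio of HIF1α KO to fl/fl means in exercised mice at ZT3 was 0.25 (1 against 4 mice), 0.29 (1 against 2), and 0.055 (2 against 2). When the block was added to the model, Hadhb was at 0.28 (adjusted p = 0.488) in exercised mice at ZT3 and 0.13 (adjusted p = 0.166) on average, in edgeR. Over all alternatives the adjusted p ranged from 0.0493 to 0.488 and from 0.0701 to 0.181. The labels name no batch, and for exercised mice at ZT3, genotype and block cannot be told apart in the block of mice 17 to 32.

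The share of counts from the mitochondrial ribosomal RNA genes also differed between blocks, with medians of 6.55%, 1.84%, 2.67%, and 5.13% in the order of mouse numbers. With its log2 value as a covariate, Hadhb was at 0.30 (adjusted p = 0.326, edgeR) in exercised mice at ZT3 and 0.13 (adjusted p = 0.126) on average. In the same comparison, 0 of 7 endothelial markers passed, with a median log2 fold change of −0.36, 6 of 7 below 0, and 4 at an unadjusted p under 0.05. Their summed level was 217 to 305 CPM in fl/fl and 185 to 256 CPM in HIF1α KO mice exercised at ZT3. Adipocyte markers had a median of −0.35, with 6 of 7 below 0 and 0 at an unadjusted p under 0.05. Over all 63 mice, Hadhb fell with the endothelial score (r = −0.54, rho = −0.48, permutation p = 4e-05, adjusted p = 0.000212 for r), with r = −0.50 without the 2 mice farthest from the median of that score. Within the blocks, r was −0.26, −0.32, −0.49, and 0.31. The part of the blocks, of the rRNA share, and of endothelial cells in the result was not tested. Without mouse 23 the log2 fold change was 0.38 (adjusted p = 0.354), and the call was also lost without mouse 20 or 28 or without fl/fl mouse 2, 6, 13, 48, 50, or 57. The average call was lost in 41 of the 63 refits that each left out 1 mouse.

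Hadha, the partner subunit, was at 284 to 400 CPM with a median of 333 in the 7 HIF1α KO mice and at 245 to 424 CPM with a median of 295 in the 8 fl/fl mice, exercised at ZT3. Its log2 fold change was 0.15 ± 0.11 (adjusted p = 0.494, edgeR), with an interval of −0.071 to 0.37. On average it was 0.083 ± 0.055 (adjusted p = 0.404). The difference between Hadha and Hadhb was not tested.

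Angptl4 was lower in HIF1α KO muscle on average without passing, at −0.64 ± 0.24 on the log2 scale, or 0.642 of the fl/fl level (adjusted p = 0.106, edgeR). Its median was lower in HIF1α KO mice in 4 of 4 combinations, DESeq2 gave an adjusted p of 0.0810, and the range over the alternatives was 0.0810 to 0.211. Acadm was at 0.16 ± 0.059 (adjusted p = 0.116, edgeR), with a median higher in HIF1α KO mice in 4 of 4 combinations. The intervals of the other 7 genes included 0, and those of Cd36, Cpt1b, Cpt2, Acadvl, Acadl, and Hadha lay between −0.20 and 0.19.

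Of the 70 genes of the wider lists, 6 were higher and 2 lower in HIF1α KO muscle on average. This was 11.4% of the 70, beside 8.26% of all tested genes. The beta-oxidation list held 4 of the higher genes, and 13 of its 14 genes had a log2 fold change above 0, with a median of 0.12 beside −0.0028 over all genes. The combinations differed, and 0 of its genes passed within any of them. Its median was 0.25 in exercised mice at ZT3 (12 of 14 above 0) and 0.23 in sedentary mice at ZT15 (14 of 14). It was 0.0012 in sedentary mice at ZT3 (7 of 14) and 0.025 in exercised mice at ZT15 (8 of 14). On average, Eci1, an isomerase for unsaturated chains, was at 0.24 ± 0.067 (adjusted p = 0.0282, edgeR), the hydratase gene Echs1 at 0.20 ± 0.068 (adjusted p = 0.0807), and the short-chain dehydrogenase gene Acads at 0.16 ± 0.056 (adjusted p = 0.086). Plin3, a droplet coat protein, had a median of 34.3 CPM (21.8 to 62.1) in fl/fl and 54.8 CPM (31.2 to 71.4) in HIF1α KO mice, a log2 fold change of 0.59 ± 0.073 (adjusted p = 4.04e-08). Pex11a, a PPAR target of peroxisomes, was at 0.19 (adjusted p = 0.0655). Acsl4, an acyl-CoA synthetase, and Vldlr were lower, at −0.25 and −0.16 (adjusted p = 0.000396 and 0.0468). Whether the calls of these listed genes hold with the block of mouse numbers or the mitochondrial rRNA share in the model was not examined. Hadhb passed with neither of these covariates. No slow-fiber, fast-fiber, adipocyte, endothelial, or blood marker passed by genotype on average.

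Interactions of exercise, time of day, and genotype were tested in 10 comparisons. None of the 100 tests on these genes passed in edgeR, with 4 at an unadjusted p under 0.05 and 0% of all genes called in each of the 10 comparisons. The test with the smallest adjusted p was that of Hadhb in fl/fl mice, where the exercise effect was higher at ZT15 than at ZT3 by 0.56 ± 0.19 on the log2 scale (adjusted p = 0.149), and DESeq2 called this test alone (adjusted p = 0.0931). In fl/fl mice at ZT3, Hadhb had a mean of 140 ± 30.6 CPM (SD, n = 8) in sedentary and 111 ± 12.3 CPM (SD, n = 8) in exercised mice. At ZT15 these means were 110 ± 15.2 and 128 ± 34.4 CPM (SD, n = 8 each). In this interaction in fl/fl mice, the 14 other beta-oxidation genes tested had a median of 0.38, with 12 above 0. Of them, 8 had an unadjusted p under 0.05 (edgeR), and 0 passed. In the 3-way interaction their median was −0.53, with 1 above 0, 8 at an unadjusted p under 0.05 (edgeR), and 0 called. The exercised groups were uneven over the blocks of mouse numbers. The block with the highest Hadhb median (153 CPM) held 0 exercised fl/fl mice at ZT3 and 3 at ZT15. The block with the lowest median (107 CPM) held 4 at ZT3 and 1 at ZT15. For sedentary fl/fl mice these numbers were 2 and 1 in the former block and 2 and 2 in the latter. The part of the blocks in these interactions was not tested.

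Females and males were compared in the same model, with 4 of each per group except 3 males among exercised HIF1α KO mice at ZT3. Cpt1b and Ucp3 were lower in females, 2 of 10 genes beside 25.1% of all tested genes, of which 13.3% were lower. Cpt1b ranged from 5.04 to 9.96 CPM with a median of 7.11 in 32 females and from 6.06 to 10.6 CPM with a median of 8.74 in 31 males. Its log2 fold change was −0.24 ± 0.059 (adjusted p = 0.00136, edgeR), and the female mean was lower in 6 of 8 groups. The exceptions were the sedentary mice at ZT3, with female and male means of 8.26 and 7.82 CPM in fl/fl and of 8.34 and 7.90 CPM in HIF1α KO mice. The widest gap was in sedentary mice at ZT15, with 4 mice of each sex. There, fl/fl females had 5.04 to 6.31 CPM and males 8.29 to 9.73, and HIF1α KO females had 6.499 to 7.59 CPM and males 9.02 to 10.2. The sexes overlapped in every other group. How many of all tested genes show such a gap was not computed, and whether the sex difference depends on the group was not tested.

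Ucp3 ranged from 69.6 to 242 CPM with a median of 127 in females and from 64.2 to 356 CPM with a median of 152 in males. Its log2 fold change was −0.33 ± 0.14 (adjusted p = 0.0764, edgeR), and the female mean was lower in 8 of 8 groups. The 4 highest mice were males, and without 1 of them, mouse 37, the log2 fold change was −0.26 (adjusted p = 0.168). The call was also lost without mouse 8, 34, or 35, the other 3 of them, and without mouse 19, 22, 29, 30, 48, 54, 61, or 63. Angptl4 was at −0.23 ± 0.24 (adjusted p = 0.557), and the other 7 genes had log2 fold changes between −0.12 and 0.018.

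Markers of other cells moved with sex. All 7 slow-fiber and all 7 adipocyte markers were higher in females, with median log2 fold changes of 0.88 and 0.82, while 3 of 7 fast-fiber and 3 of 5 blood markers were lower. The mean log2 CPM of the adipocyte markers was 2.14 to 4.25 in females and 1.37 to 4.01 in males, and that of the slow-fiber markers 6.25 to 8.67 and 5.08 to 7.64. The brown fat marker Ucp1 was at or near 0. With the adipocyte score as a covariate, Cpt1b was at −0.15 (adjusted p = 0.182, edgeR) and Ucp3 at −0.17 (adjusted p = 0.655). With the slow-fiber score, Cpt1b was at −0.30 (adjusted p = 0.00293) and Ucp3 at −0.13 (adjusted p = 0.738), and Acadm (−0.22), Acadvl (−0.22), and Acadl (−0.20) passed as well. Over all alternatives the adjusted p ranged from 0.00081 to 0.182 for Cpt1b and from 0.0335 to 0.738 for Ucp3. The part of these cells in the result was not tested.

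**Figure D4:**
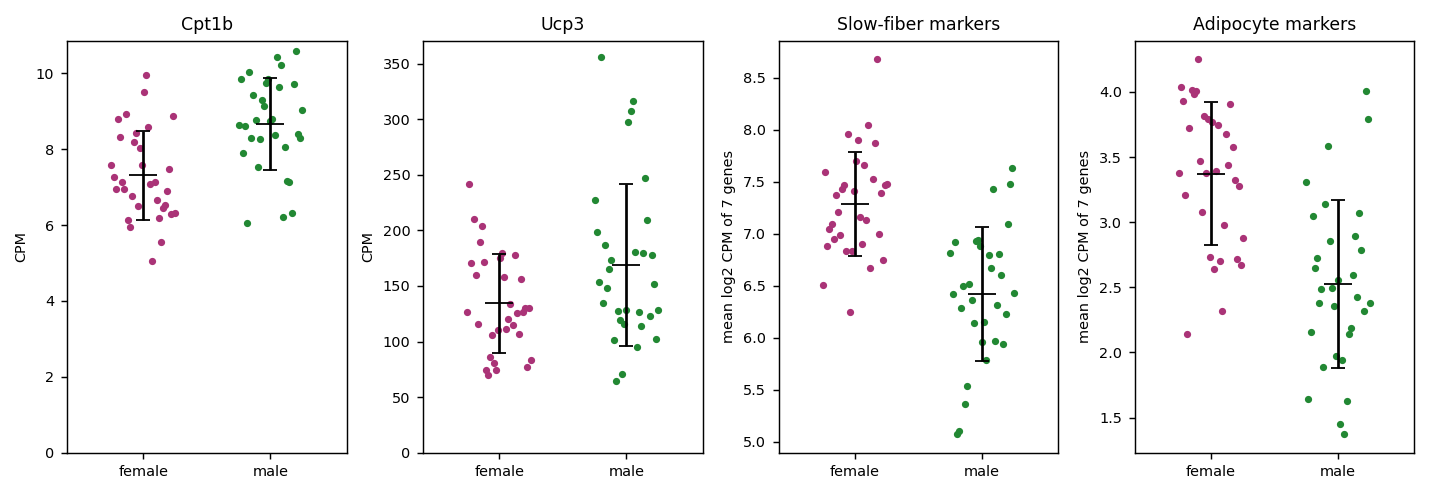
Cpt1b and Ucp3 in CPM, and the mean log2 CPM of 7 slow-fiber and 7 adipocyte markers (vertical axes), in females and males (horizontal axes). Points are mice and bars the mean and SD. Cpt1b and Ucp3 are lower in females (medians 7.11 against 8.74 and 127 against 152 CPM), whereas both marker scores are higher.

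Of the 70 genes of the wider lists, 14 were higher and 15 lower in females. This was 41.4% of the 70, beside 25.1% of all tested genes. The lowest were Acsl3, an acyl-CoA synthetase, at −0.94 and Vldlr at −0.93 on the log2 scale. Vldlr ranged from 160 to 281 CPM in females and from 260 to 596 in males. In the beta-oxidation list, 3 genes were higher and 2 lower, among them Hadh, the short-chain hydroxyacyl-CoA dehydrogenase gene (−0.20, adjusted p = 0.000298, edgeR), and Echs1 (0.25, adjusted p = 0.00424).

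To describe how the genes varied together across the 63 mice, correlations of log2 CPM were computed for 85 pairs of genes and scores, with 100000 permutations each, so 1e-05 is the smallest p possible, and p-values were adjusted over the 85. Hadha followed Acadvl (r = 0.89, rho = 0.89, permutation p = 1e-05, adjusted p = 7.73e-05 for r) and Acadm (r = 0.84, rho = 0.85). The correlation with Acadvl was 0.87 without the 2 mice farthest from the median of Acadvl, and 0.85, 0.97, 0.91, and 0.74 within the blocks of mouse numbers. Hadhb was closest to Cd36 (r = 0.81, rho = 0.81) and Acadm (r = 0.78, rho = 0.79). Without the 2 mice farthest from the median of Cd36 or of Acadm, these r were 0.82 and 0.75. Within the blocks, r of Hadhb and Cd36 was 0.61 to 0.87, and r of Hadhb and Acadm was 0.83 to 0.87 in the first 3 blocks but 0.28 in mice 49 to 64.

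Hadha and Hadhb, which share the upstream gap printed above, had r = 0.71 and rho = 0.73 (permutation p = 1e-05, adjusted p = 7.73e-05 for r). Without the 2 mice farthest from the median of Hadha, r was 0.73. Within the blocks, r was 0.90, 0.77, 0.67, and 0.61. Hadhb fell with the share of mitochondrial ribosomal RNA over all mice (r = −0.64, rho = −0.58), but r within the blocks was 0.31, −0.63, −0.54, and 0.21, so its sign turned in 2 of 4.

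Angptl4 did not follow the oxidation genes, with r between −0.024 and 0.21 for Cpt2, the dehydrogenases, Hadha, Hadhb, and Cpt1b. It followed Ucp3 (r = 0.47, rho = 0.49, permutation p = 0.00014, adjusted p = 0.000567 for r), with r = 0.51 without the 2 mice farthest from the median of Angptl4 and r = 0.68, 0.23, 0.59, and 0.60 within the blocks. Over all mice, Ucp3 went against Hadhb (r = −0.39, rho = −0.40, permutation p = 0.00161, adjusted p = 0.00472 for r), with r = −0.31 without the 2 mice farthest from the median of Hadhb. This relation did not hold within blocks, where r was 0.25, −0.35, 0.22, and −0.46. Mice 17 to 32 had the highest block median of Hadhb (153 CPM) and the lowest of Ucp3 (104 CPM).

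**Figure D5:**
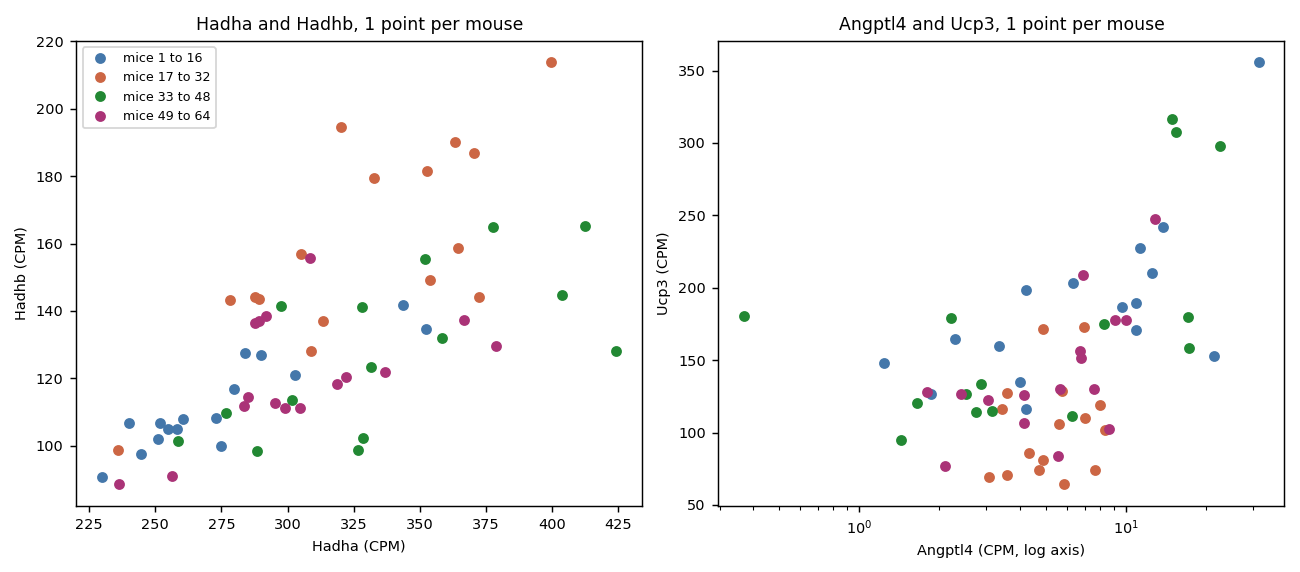
Hadhb against Hadha (left) and Ucp3 against Angptl4 (right, horizontal log axis), in CPM, 1 point per mouse, colored by block of 16 mouse numbers. Hadhb rises with Hadha within each block (r = 0.61 to 0.90), and mice 17 to 32 have the highest median of Hadhb (153 CPM). The mouse with the most Angptl4 (31.4 CPM) also has the most Ucp3 (356 CPM).

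As a description over the same 63 mice, the protein-coding genes most like each gene were also listed, up to 2 per gene and leaving out the other members of the 10. Angptl4 was most like Pdk4 (r = 0.67), and Ucp3 most like Lpin1 (r = 0.75), a phosphatidate phosphatase gene, and Pard3 (r = 0.73). Acadm was most like Etfdh (r = 0.94), which passes electrons from the dehydrogenases to the respiratory chain, and Acat1 (r = 0.91). Hadhb was most like Eci1 (r = 0.91) and the complex I gene Ndufs1 (r = 0.90). Outside the 10 genes, Hadha and Acadvl both had the carnitine-acylcarnitine carrier gene Slc25a20 first (r = 0.86 and 0.83), followed by Etfdh (r = 0.85) and the ATP synthase gene Atp5a1 (r = 0.83).

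Acadl was most like Lpl (r = 0.70), the lipoprotein lipase that Angptl4 inhibits, and Dld (r = 0.69). Cpt2 was most like Got2 (r = 0.74) and the citrate synthase gene Cs (r = 0.67). Cpt1b was most like Hadh (r = 0.67) and Cipc (r = 0.65), and Cd36 most like Paip2b (r = 0.81) and Klhl24 (r = 0.80).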

How the data were processed

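Total RNA of gastrocnemius muscle was sequenced from stranded mRNA libraries. Per the labels, the authors used STAR for alignment to mm10 and featureCounts for counting, and deposited unnormalized counts for each gene. Versions, annotation release, strand setting, and handling of shared reads are not given in the sources used here. Identifiers were matched without version to GENCODE M21 (55141 of 55401, 54349 with the same version). Groups, sex, and mouse numbers came from the sample labels. The 10 genes, the wider lists, and the marker lists were chosen with earlier results of these data known.

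The filterByExpr function (minimum count 10) kept 15241 genes. In edgeR 4.0.16 (R 4.3.3), a robust quasi-likelihood model with terms for group and sex was fitted to the 63 libraries after TMM scaling. P-values were adjusted by Benjamini-Hochberg over all tested genes, separately for each comparison, with 0.1 as the threshold of the adjusted p. SE is the absolute log2 fold change divided by the square root of F, and 95% intervals are ±1.96 SE. CPM used TMM-scaled library sizes, log2 CPM a prior count of 2, and RPKM the union of GENCODE exons. One CPM was 2.36 counts in the smallest and 40.4 in the largest library, and intervals cover the spread between mice only. Correlations used permutation tests in numpy 2.4.6. In 217 pairs of libraries within groups, the smallest chi-square per degree of freedom was 3.38, so no library was a copy of another of its group. Pairs across groups were not compared. The test was run on simulated data with 200 changed genes.

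Genes outside the 10 were named by a rule: up to 3 per list that passed with the smallest p in each average comparison. One gene that this rule names is not reported here. The alternatives were all 64 libraries, no sex term, DESeq2 1.42.0, RLE size factors, other filters, an adjusted p under 0.05, removal of the 3 smallest libraries, and 4 covariates, namely the block of 16 mouse numbers, the log2 share of mt-Rnr1 and mt-Rnr2, and slow-fiber and adipocyte marker scores. Leaving out each mouse in turn was added after seeing the data.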

Additional observations from a re-analysis of the deposited data

Results flagged for a closer look

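In 9 of 80 sets of a gene and a group, the highest mouse stood apart from the others by Dixon's 95% criterion for 7 or 8 values. Chance gives about 1 in 20 where values are normal, which was not checked for CPM. Sets of different genes also share the same mice, so they are not independent. The 9 came from 7 mice, and mouse 8 and mouse 37, both fl/fl males at ZT15, stood apart for both Angptl4 and Ucp3.

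In sedentary fl/fl mice at ZT15, mouse 8 had 31.4 CPM of Angptl4 (next highest 9.97) and 356 CPM of Ucp3 (next highest 181). In exercised fl/fl mice at ZT15, mouse 37 had 14.9 CPM of Angptl4 (next highest 7.67) and 317 CPM of Ucp3 (next highest 135). Pdk4, the gene most like Angptl4, was at 1385 CPM in mouse 8 and 1553 CPM in mouse 37, the 2 highest of all 63 mice, beside 274 to 560 and 232 to 814 CPM in the other mice of their groups. Lpin1 and Pard3, the genes most like Ucp3, were also above the rest of the group in both mice. These genes were picked by correlation over the same 63 mice, with mouse 8 and mouse 37 among them. Their levels in these mice are therefore no separate evidence. Both mice are at ZT15, where Angptl4 was lower on average, and that call held without either of them.

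In sedentary HIF1α KO mice at ZT3, mouse 35 had 15.4 CPM of Angptl4 (next highest 8.26) and mouse 33 had 119 CPM of Acadl (next highest 107). In exercised fl/fl mice at ZT3, mouse 50 had 228 CPM of Acadl (next highest 147) and mouse 36 had 424 CPM of Hadha (next highest 329). In sedentary fl/fl mice at ZT15, mouse 63 had 403 CPM of Cd36 (next highest 282).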

How the results depend on the processing

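Counts of the 10 genes past the threshold were recomputed under 12 alternatives. By exercise the count was 0 under each of them, of 50 tests, or 45 with at least 10 counts in every library. By time of day it was 1, and 0 of 45 with at least 10 counts in every library, where Angptl4 was not tested. The value of Angptl4 otherwise ranged from −0.87 to −0.76 (adjusted p 0.0106 to 0.051). By genotype the count was 2 of 50, also with the adipocyte score and, of 45 tests, with at least 10 counts in every library, and 3 with DESeq2 or the slow-fiber score. It was 1 with all 64 libraries, with RLE size factors, or without the 3 smallest libraries, and 0 with no sex term, no filter, the block of mouse numbers, the mitochondrial rRNA share, or an adjusted p under 0.05. By sex the count was 2 of 10, and 1 with no filter or an adjusted p under 0.05, 3 with the rRNA share, 4 with the slow-fiber score, and 0 with the adipocyte score. For interactions it was 0 of 100, and 1 with DESeq2. The causes were not tested.

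Of 585 values of single genes, 542 kept their direction and side of the threshold, 19 no longer passed, 7 newly passed, and 17 changed sign, 0 of them among those that passed. By exercise with the slow-fiber score these were Cpt1b (−0.0095), Acadm (−0.016), Hadha (−0.0042), and Hadhb (−0.027). By genotype in exercised mice at ZT3 they were Cd36 (−0.070), Cpt2 (0.025), Acadvl (−0.020), and Ucp3 (0.059) with the block, Cd36 (−0.039) and Acadvl (−0.066) with the rRNA share, and Acadvl (−0.0053) with all libraries. By sex they were Cd36 with the rRNA share (−0.018), Cd36 (−0.12) and Hadha (−0.099) with the slow-fiber score, and Cpt2 (0.034), Acadvl (0.067), and Hadhb (0.0053) with the adipocyte score.

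With each of the 63 mice left out in turn, Angptl4 by time of day ranged from −1.04 to −0.73 and Cpt1b by sex from −0.26 to −0.22, and both passed in 63 of 63. Hadhb by genotype in exercised mice at ZT3 ranged from 0.38 to 0.54 (passed in 54), Hadhb on average from 0.16 to 0.21 (22), and Ucp3 by sex from −0.36 to −0.26 (51). In simulated data, 46.3% of 67 genes changed by 0.5 on the log2 scale were recovered for genotype in exercised mice at ZT3, so changes of that size may be missed within a combination. No paired analysis was possible because the mouse numbers in the labels are unique and no number is shared between groups.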
